A study of Mus musculus with 12 samples.

Results

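The genes described here are 44 interferon-stimulated and antigen-processing genes, measured in mouse quadriceps on one-colour Agilent arrays. They were taken as the gene probes whose name in the scanner files equals a gene of the list, which matched 43 of the 44 genes, among 30038 names on the array, through 64 of 41174 gene probes. Ifi27 was not matched in this way. Exercised mice (n = 6) were given 4 weeks of treadmill training, with muscle taken 3 hours after the last bout, and sedentary mice (n = 6) were untrained controls. All 12 animals were 13-week-old C57BL/6J males, and each array held RNA of another mouse. Every exercised animal had both the training weeks and a recent bout, so the effects of these cannot be told apart.

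Interferons are secreted proteins, and cells release type I interferons when sensors of foreign nucleic acid are triggered. Type I interferons act mainly through the interferon-stimulated response element (ISRE) in promoters, which a complex holding STAT2 and IRF9 binds, whereas interferon gamma acts mainly through the gamma-activated site (GAS). The induced genes include RNA sensors, proteins that block viral RNA or particles, GTPases that act on vacuoles holding microbes, and the machinery that cuts proteins and loads peptides onto MHC class I. Skeletal muscle fibres and the immune and endothelial cells among them can all express such genes.

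Promoters of the genes were searched for the ISRE and the GAS. Interferons act mainly through these elements, so high shares follow from the kind of genes listed and are not a separate finding. RefSeq windows of 250 bases before to 50 bases after a gene's start (build GRCm38.p6) were held for 32 of the 44 genes, and the ISRE core (GAAA, any 2 bases, then GAAA) stood on either strand in 16 of them (50%), against 3.993% of the 27025 genes with a window. The GAS letters TTCNNNGAA stood in 9 of the 32 (28.125%), against 9.554% of all genes with a window. The 160 bases before the start are printed for 4 genes with a window among those with the smallest p for exercised against sedentary, and capitals mark each ISRE core match.
Ifit3, chr19:34583369-34583528, plus strand: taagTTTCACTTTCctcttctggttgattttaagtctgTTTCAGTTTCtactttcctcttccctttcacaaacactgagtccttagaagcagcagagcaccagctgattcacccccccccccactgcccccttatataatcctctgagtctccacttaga
Oasl2, chr5:114896774-114896933, plus strand: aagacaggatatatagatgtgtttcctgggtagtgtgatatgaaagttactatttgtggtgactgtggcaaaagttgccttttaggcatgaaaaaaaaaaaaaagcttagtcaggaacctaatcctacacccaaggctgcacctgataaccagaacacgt
Isg15, chr4:156200819-156200978, minus strand: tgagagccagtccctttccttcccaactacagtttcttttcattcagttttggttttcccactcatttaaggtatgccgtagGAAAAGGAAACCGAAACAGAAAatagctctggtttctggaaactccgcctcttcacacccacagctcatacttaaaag
Oasl1, chr5:114923080-114923239, plus strand: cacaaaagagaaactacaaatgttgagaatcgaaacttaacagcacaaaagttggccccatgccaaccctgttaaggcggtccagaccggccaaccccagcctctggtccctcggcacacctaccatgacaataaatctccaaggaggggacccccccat
The Ifit3 stretch holds 2 matches, 156 to 147 and 122 to 113 bases before the start, and both are the reverse complement of the letters searched. The Isg15 stretch holds 3 matches that overlap one another between 78 and 57 bases before the start. The stretches of Oasl2 and Oasl1 hold no match of these letters. A match describes the sequence and does not show that a factor binds there.

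Of the 44 genes, 40 could be tested with 1 probe each, the probe with the highest mean level among those well above background on at least 6 of 12 arrays. Mx1, a dynamin-like GTPase that acts on viral particles, and the oligoadenylate synthetases Oas1b and Oas3 were above background on at most 1 array and have no value. C57BL/6 mice are known to carry defective alleles of Mx1 and Oas1b. The probe of Ifi44 was above background on 2 of 6 exercised and 4 of 6 sedentary arrays, and the probes of the other 39 genes were above background on 12 of 12. No spot of a tested probe was saturated. Levels are given below as relative intensity, the spot signal divided by the 75th percentile of its array. Levels of different probes cannot be compared, and in whole muscle fewer cells of a type and less RNA per cell cannot be told apart.

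The genes as a list lay slightly lower in exercised than in sedentary muscle, and 1 of them passed the test. That gene was Ifit3, and no member was called higher. The count of 1 member called lower of 40 compares with 1.84% of all 16555 genes and unnamed probes tested, and 0 called higher with 1.79% (3.63% of features were called in either direction), where a call is an adjusted p below 0.05 in limma. The log2 difference, exercised minus sedentary, was below 0 for 39 of 40 members (97.5%), against 57.9% of all features tested. Its median was -0.19 over the members and -0.03 over all features. At an unadjusted p below 0.05, 10 members were lower and 0 higher, and the shares of all features were 9.82% lower and 6.39% higher. The median standard error (SE) of a member's difference was 0.15 on the log2 scale, so differences of the size of the list's median were not detectable for a typical member. The members share the same 12 mice, some of which were high or low in many of them, so 39 differences below 0 are not 39 independent observations.

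**Figure D1:**
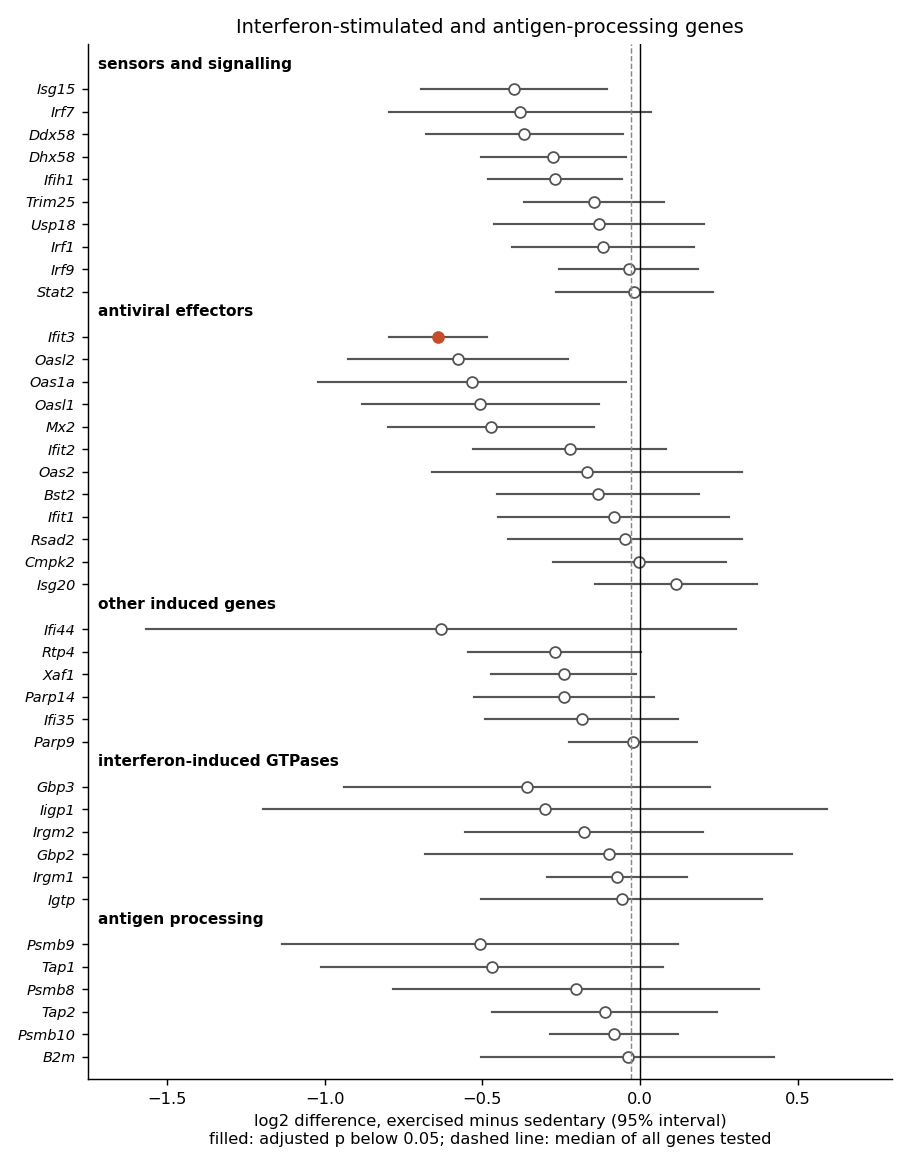
Log2 difference in level (exercised minus sedentary) with its 95% interval for the 40 genes tested, grouped by role, from 6 mice a group. The filled point (Ifit3) passed the test, the dashed line is the median of all features tested, and only Isg20 lies right of 0.

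Among the antiviral effectors Ifit3 was lower in exercised muscle and 11 of the 12 tested genes did not pass the test, with a median log2 difference of -0.20. Ifit3 encodes a protein of tetratricopeptide repeats whose human counterpart binds IFIT1 and steadies its hold on viral RNA, and its probe (A_51_P359570) is annotated at chr19:34663105-34663164 on mm9. Its relative intensity was 1.14, 1.15, 1.12, 1.05, 1.07 and 1.07 in the exercised mice, against 1.66, 1.92, 1.76, 1.82, 1.73 and 1.44 in the sedentary mice. Every exercised value lay below every sedentary value, and Ifit3 was the only tested member whose groups did not overlap in this direction (1 of 40, against 1.61% of all features). No member lay higher in exercised mice without overlap, as 1.39% of all features did. The level fell by 35.8% (log2 difference -0.64, SE 0.07, 95% interval -0.80 to -0.48, adjusted p = 0.00041), which placed Ifit3 35th of 16555 features by p. Its spread within groups, a standard deviation (SD) of 0.11 on the log2 scale, was the smallest of the 40 genes. Ifit3 was also lower in exercised than in sedentary muscle on each slide taken alone, with log2 differences of -0.63, -0.83 and -0.57 on slides 1, 2 and 3. Slide 1 held 1 exercised mouse and slide 2 held 1 sedentary mouse, whose spread is assumed to be that of the other group, and these sets of 4 arrays are too small to read a missed threshold (adjusted p = 0.74, 0.42 and 0.25). A slide block in the fit gave -0.66 for Ifit3 (adjusted p = 0.0026).

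Oasl2, an oligoadenylate synthetase-like protein that is enzymatically active in the mouse, did not pass. Its relative intensity ran from 0.318 over a median of 0.382 to 0.526 in exercised mice, and from 0.499 over 0.566 to 0.867 in sedentary mice. The groups overlapped at 1 end, 1 exercised mouse lying above the lowest sedentary ones (log2 difference -0.58, SE 0.16, adjusted p = 0.071). Mx2, a dynamin-like GTPase related to Mx1, ran from 0.107 over 0.134 to 0.203 in exercised mice and from 0.177 over 0.191 to 0.221 in sedentary mice (log2 difference -0.47, adjusted p = 0.12). Oasl1, a relative of Oasl2 that in the mouse restrains translation of Irf7, ran from 0.0557 over 0.0803 to 0.128 in exercised mice and from 0.0967 over 0.115 to 0.141 in sedentary mice (log2 difference -0.51, adjusted p = 0.149). Below the lowest sedentary mouse lay 5 of 6 exercised mice for Oasl2 and 4 of 6 for Mx2. Oas1a, which makes the oligoadenylates that activate RNase L, had the widest spread of the 5 effectors with the smallest p, from 0.133 over 0.175 to 0.326 in exercised mice and from 0.208 over 0.263 to 0.419 in sedentary mice (log2 difference -0.53, SE 0.23, adjusted p = 0.254).

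The rest of the effectors differed less. Ifit1 and Ifit2, relatives of Ifit3 on the same chromosome that bind RNA, had log2 differences of -0.08 and -0.22 (adjusted p = 0.866 and 0.493). Rsad2 (viperin), which makes a chain-terminating nucleotide, and its neighbour Cmpk2, a nucleotide kinase, had differences of -0.05 and -0.002. Oas2 had -0.17 and Bst2 (tetherin), which holds virus particles at the cell surface, had -0.13. Isg20, an exonuclease that degrades RNA, was the single member above 0, at 0.11. None of these 7 genes passed the test, and their adjusted p ran upward from that of Ifit2.

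**Figure D2:**
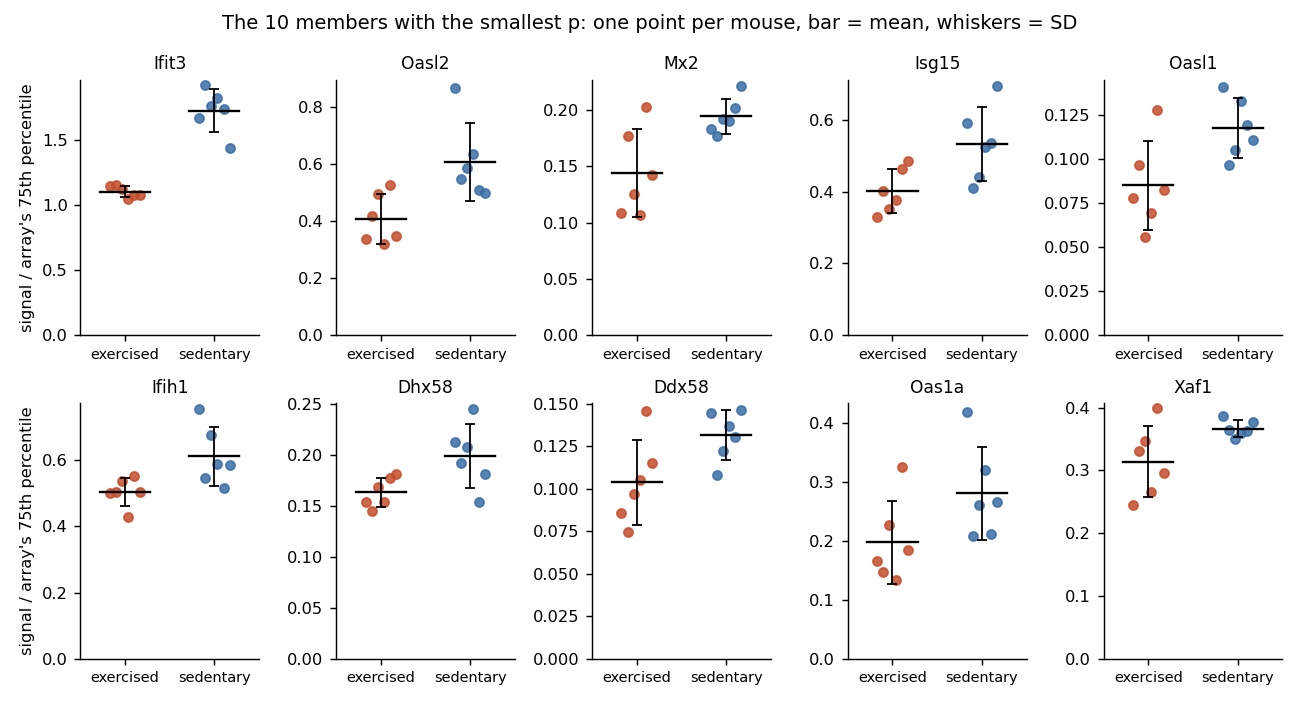
Relative intensity (signal divided by the array's 75th percentile, linear axis from 0) of the 10 genes with the smallest p, with exercised mice on the left and sedentary mice on the right of each panel, 6 points a group, bars for means and whiskers for SD. Only for Ifit3 do the points of the groups not overlap.

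None of the 10 sensors and signalling genes passed the test, and their median log2 difference was -0.21, with 10 of 10 below 0. Isg15, a ubiquitin-like protein that is linked to other proteins, ran from 0.330 over 0.389 to 0.485 in exercised mice and from 0.411 over 0.530 to 0.694 in sedentary mice. The groups overlapped, and the log2 difference was -0.40 (SE 0.14, adjusted p = 0.144). The RNA helicases that sense viral RNA lay close together. Ifih1 (MDA5), which senses long double-stranded RNA, ran from 0.430 over 0.503 to 0.553 in exercised mice and from 0.515 over 0.588 to 0.755 in sedentary mice (log2 difference -0.27, adjusted p = 0.175). Dhx58 (LGP2), which tunes the other sensors, ran from 0.145 over 0.161 to 0.181 in exercised mice and from 0.154 over 0.20 to 0.246 in sedentary mice (log2 difference -0.28, adjusted p = 0.199). Ddx58 (RIG-I), which senses RNA with a triphosphate end, ran from 0.0747 over 0.101 to 0.146 in exercised mice and from 0.108 over 0.134 to 0.147 in sedentary mice (log2 difference -0.37, adjusted p = 0.21). For each of the 3 helicases the exercised median lay below the sedentary one while the ranges overlapped. Irf7, the transcription factor that amplifies type I interferon production, ran from 0.152 over 0.231 to 0.305 in exercised mice and from 0.219 over 0.294 to 0.418 in sedentary mice (log2 difference -0.38, adjusted p = 0.356). Usp18, which removes ISG15 and dampens receptor signalling, had -0.13, and Irf1, a factor that interferon gamma induces, had -0.12. Stat2 and Irf9, which act at the ISRE, had -0.02 and -0.04 (adjusted p = 0.964 and 0.909).

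Of the other induced genes 0 of 6 passed, with a median log2 difference of -0.24. Xaf1, a partner of the apoptosis inhibitor XIAP, ran from 0.245 over 0.313 to 0.399 in exercised mice and from 0.351 over 0.363 to 0.387 in sedentary mice (log2 difference -0.24, adjusted p = 0.276). The highest exercised mouse lay above every sedentary mouse, and the SD was 0.0565 in exercised and 0.0130 in sedentary mice. Rtp4, a receptor transporter protein, had -0.27 (adjusted p = 0.315), and Parp14 and Parp9, of the ADP-ribosyltransferase family, had -0.24 and -0.02. Ifi35 had -0.18. Ifi44 had a difference of -0.63 but the widest spread of the 40 genes, with a within-group SD of 0.83 on the log2 scale (95% interval -1.57 to 0.30), and its probe was near background on many arrays.

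The interferon-induced GTPases and the antigen-processing genes did not pass the test in any of 12 cases. Their spread among mice of 1 group was uneven, with a within-group SD on the log2 scale from 0.16 for Psmb10 and 0.18 for Irgm1 to 0.79 for Iigp1. Of the GTPases, Gbp2 and Gbp3 are guanylate-binding proteins and Igtp, Irgm1, Irgm2 and Iigp1 are immunity-related GTPases. Their median log2 difference was -0.14, with a range of -0.36 for Gbp3 to -0.06 for Igtp. Iigp1 ran from 0.900 over 2.32 to 9.1 in exercised mice and from 2.31 over 3.03 to 4.21 in sedentary mice (log2 difference -0.30, 95% interval -1.20 to 0.59). Gbp3 ran from 0.556 over 0.923 to 2.33 in exercised mice and from 1.02 over 1.25 to 1.58 in sedentary mice. Gbp2 ran from 0.595 over 0.890 to 2.48 in exercised mice and from 0.917 over 1.03 to 1.38 in sedentary mice (log2 difference -0.10). For each of these 3 genes the exercised mice held the lowest and the highest value of all 12.

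The antigen-processing genes had a median log2 difference of -0.16. Psmb9, a catalytic subunit of the immunoproteasome, ran from 0.800 over 1.25 to 3.26 in exercised mice and from 1.46 over 1.74 to 2.64 in sedentary mice (log2 difference -0.51, SE 0.29, adjusted p = 0.434). Tap1, a subunit of the transporter that carries peptides into the endoplasmic reticulum, ran from 0.153 over 0.187 to 0.503 in exercised mice and from 0.246 over 0.299 to 0.355 in sedentary mice (log2 difference -0.47, SE 0.25, adjusted p = 0.393). For both genes 5 of the 6 exercised mice lay below every sedentary mouse, and 1 exercised mouse lay above every sedentary mouse. Psmb9 and Tap1 are read from opposite strands of chromosome 17, and their RefSeq promoter windows share 275 bases. Psmb8, another immunoproteasome subunit, ran from 1.51 over 2.24 to 5.43 in exercised mice and from 2.25 over 2.78 to 3.78 in sedentary mice. The subunits Psmb8 and Psmb10 had -0.20 and -0.08, the second transporter subunit Tap2 had -0.11, and B2m, the light chain of MHC class I, had -0.04.

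The exercised mouse with the high values was the same for these genes. It is animal 1 of set 2 in the titles, which sort the mice into 2 numbered sets of unstated meaning. It held the highest value of all 12 mice in 5 of 6 antigen-processing genes and 5 of 6 GTPases. Over the 6 antigen-processing genes its mean log2 deviation from the 12-mouse means was 0.74, and over the GTPases 0.92. The same mouse was not high in the antiviral effectors, with a mean deviation of -0.19. Without it, Tap1 and Psmb9 passed beside Ifit3, with log2 differences of -0.72 (adjusted p = 0.014) and -0.77 (adjusted p = 0.048). In that fit 3 members were called lower, and 470 of all 16555 features were called in either direction. The mouse was singled out for its high values in these genes, so leaving it out lowers their exercised mean and spread by construction. These calls therefore do not support a fall in Tap1 or Psmb9, which did not pass on all 12 arrays. The medians without this mouse were -0.32 over the antigen-processing genes and -0.30 over the GTPases. This mouse had the highest adipocyte marker deviation of the 12, at 1.67. It had the one MHC class II deviation above 0 among exercised mice, at 0.24. Its dendritic and macrophage marker deviations were 0.23 and -0.06. Exercised animal 1 of set 1 came close in the adipocyte markers, at 1.59. That mouse had -0.04 over the antigen-processing genes and -0.23 over the GTPases. The part of these cells in the values of either mouse was not tested.

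Another pair of mice stood out in opposite senses. Exercised animal 3 of set 2 held the lowest value of all 12 mice in 21 of 40 genes, with mean deviations of -0.60 over the antigen-processing genes and -0.80 over the GTPases. It also had the highest level of S100a9, the 1 neutrophil marker of 6 that was kept, at 6.30 above the mean on the log2 scale. Its tendon marker deviation was the highest, at 1.12, and its MHC class II deviation the lowest, at -0.51. The next highest S100a9, at 3.39, was in sedentary animal 2 of set 2, whose mean deviation over the members was 0.19. Without exercised animal 3 of set 2 the median over the members was -0.11 and 34 of 40 differences were below 0. Sedentary animal 1 of set 1 held the highest value in 12 of 40 genes and lay above the gene's own mean in all but 3. In that mouse the macrophage markers deviated by 0.60 and the MHC class II genes by 0.83. Without it the median was -0.15, 32 of 40 differences were below 0, and the call of Ifit3 remained. The part of these cells in the values of these mice was not tested.

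Leaving out exercised animal 4 of set 2 had the largest effect on the count. Its mean deviation over the effectors was 0.23, the highest among exercised mice. Without it Oasl2, Mx2 and Oasl1 passed beside Ifit3, with log2 differences of -0.66, -0.58 and -0.63 (adjusted p = 0.046, 0.031 and 0.035). In that fit 4 members were called lower, and 524 of all 16555 features were called in either direction. As this mouse was the highest exercised one over the effectors, leaving it out lowers their exercised mean. The added calls therefore do not support a fall in these 3 genes. Ifit3 was called lower in each of the 12 fits that left out 1 mouse. The typical within-group SD of the members, a median of 0.28 on the log2 scale, was wider than that of all features, at 0.19.

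**Figure D3:**
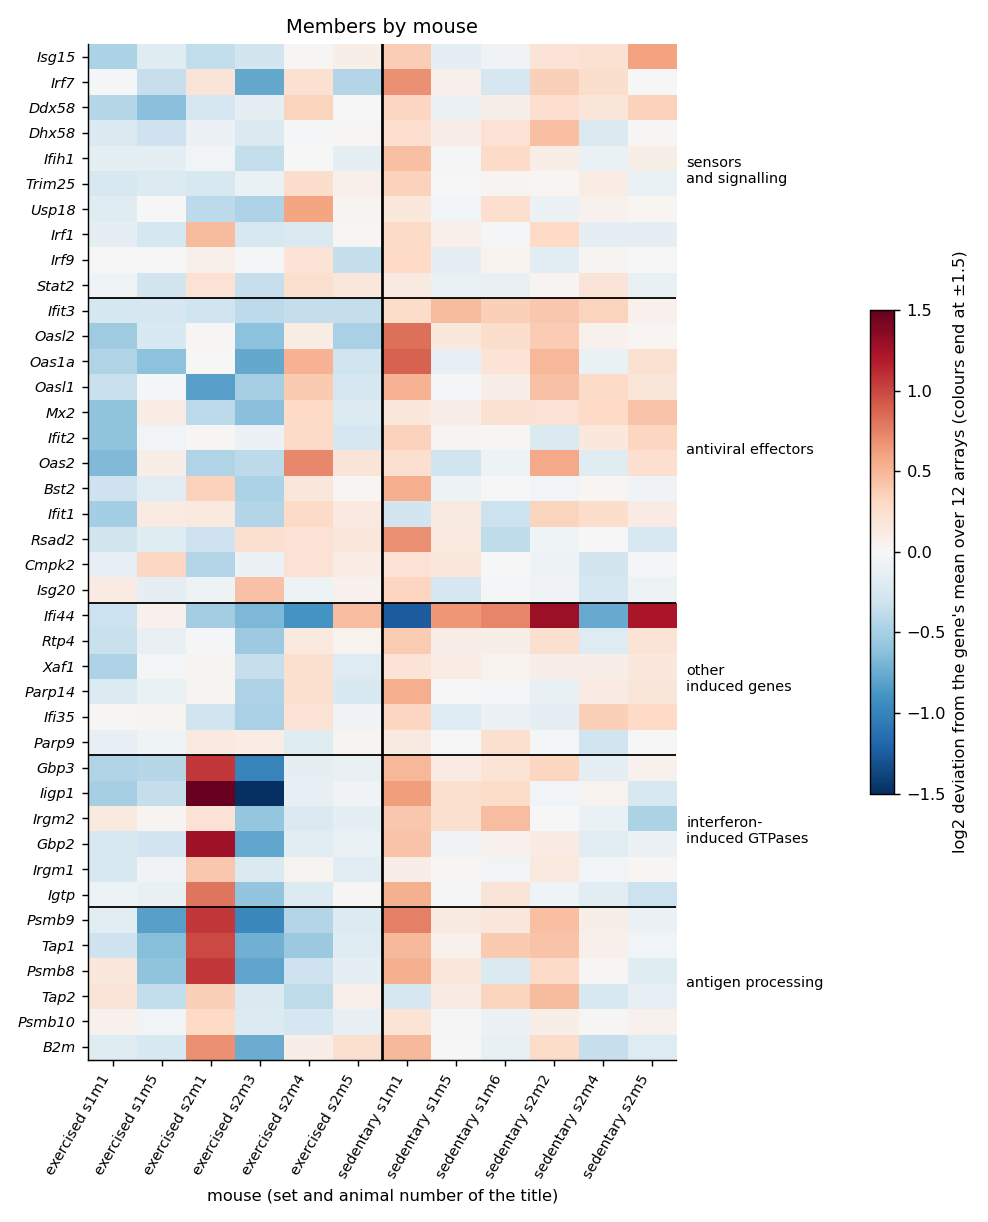
Log2 deviation of each of the 40 genes (rows, by role) from its mean over 12 arrays, with the 6 exercised mice left of the line and the 6 sedentary mice right of it, red for higher and blue for lower and colours ending at 1.5. Ifit3 is lower in all 6 exercised mice, and the GTPase and antigen-processing genes are red in exercised mouse s2m1 (set 2, animal 1) and blue in exercised mouse s2m3.

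**Figure D4:**
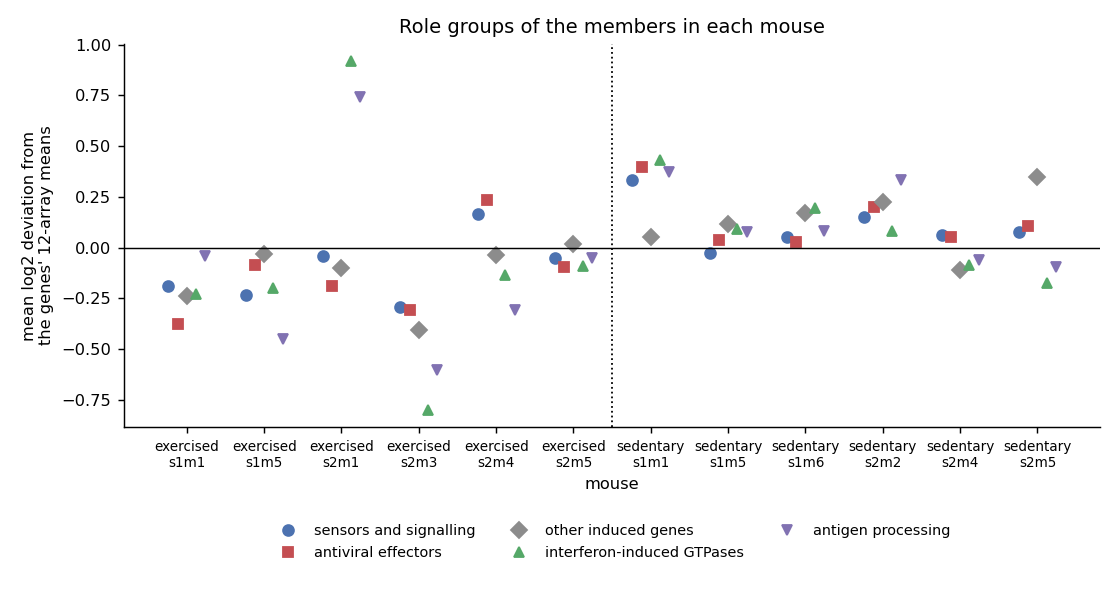
Mean log2 deviation from the 12-array means over the tested genes of each role, per mouse, exercised mice left of the dotted line and sedentary mice right of it. In exercised mouse s2m1 the GTPases (0.92) and antigen-processing genes (0.74) stand apart from the antiviral effectors (-0.19).

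Slides held unequal numbers of the groups. Slide 1 carried 1 exercised and 3 sedentary mice, slide 2 carried 3 exercised and 1 sedentary, and slide 3 carried 2 of each. The median log2 difference of the members was -0.15, -0.08 and -0.36 within slides 1, 2 and 3, and 0 members passed within any of them, with 0, 8 and 0 of all features passing. Of the 40 genes, 21 were below 0 on each slide, 0 were above 0 on each slide, and 19 were mixed. A fit that blocked on slide gave a median of -0.21 with 38 of 40 differences below 0 and called Ifit3 alone among the members.

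Of the genes tested, 10 had more than 1 probe above background, which gave 12 comparisons of a further probe with the brightest one. For Trim25, the ubiquitin ligase that activates RIG-I, the probes went apart. The dimmer probe (A_52_P654161, annotated at chr11:88878330-88878389 on mm9) read 0.105, 0.165, 0.156, 0.160, 0.150 and 0.161 in exercised mice, against 0.0841, 0.0833, 0.104, 0.101, 0.102 and 0.0978 in sedentary mice. These groups did not overlap, though the lowest exercised value lay close to the highest sedentary one. In the fit of all 22919 probes this probe rose (log2 difference 0.64, SE 0.11, adjusted p = 0.0085), where 1.81% of probes were called higher and 1.46% had non-overlapping groups in that direction. The brighter probe (A_51_P212854) had a difference of -0.15 and did not pass. The difference between the probes was 0.78 on the log2 scale (exact permutation test, two-sided, p = 0.00216, the smallest that 924 splits of the mice allow, and 0.026 adjusted over the 12 comparisons). The direction of Trim25 therefore depends on the probe, and which transcript parts the probes read was not analysed here.

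The probes of the other genes differed less. The dimmer Ddx58 probe (A_52_P385536) read 0.0264 to 0.0644 in exercised mice and 0.0670 to 0.0870 in sedentary mice. Those groups did not overlap (1.43% of probes were lower without overlap), with a log2 difference of -0.52 that missed the threshold (adjusted p = 0.174). A dim B2m probe had -0.46, while the 2 brighter B2m probes had -0.04 and 0.04. Its difference from the brightest one did not pass over the 12 comparisons (exact permutation test, p = 0.0368, adjusted p = 0.221).

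**Figure D5:**
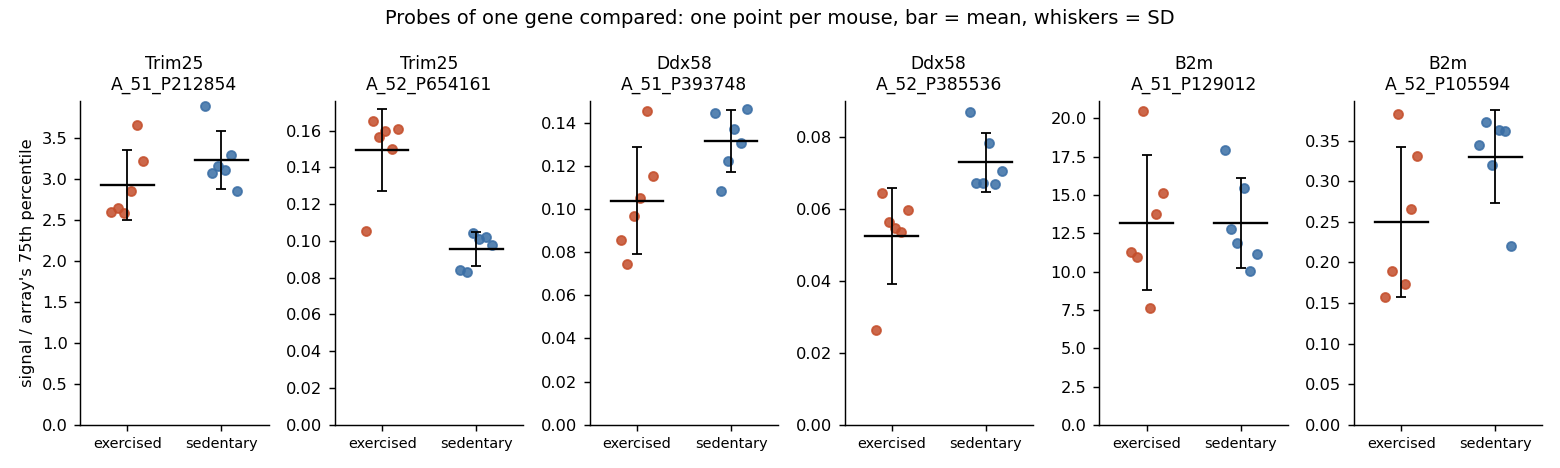
Relative intensity of a brighter (left) and a dimmer (right) probe of Trim25, Ddx58 and B2m, each panel with its own linear axis from 0, exercised mice left of sedentary mice, 6 points a group, bars for means and whiskers for SD. The dimmer Trim25 probe is higher in exercised mice and its brighter probe is not.

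Near relatives of the members were read by probes of their own. Ifit3b, which is closely related to Ifit3 and listed under an older name in the scanner files, had a log2 difference of -0.82 (SE 0.25, adjusted p = 0.103). Whether the Ifit3 probe also binds RNA of Ifit3b was not tested. Oas1c, a relative of Oas1a that was singled out after its values were seen, fell by 0.87 on the log2 scale (SE 0.13, adjusted p = 0.0029). It read 0.0703 to 0.123 in exercised mice and 0.140 to 0.198 in sedentary mice, without overlap. Of all features 1.84% were called lower and 1.61% were lower without overlap. The probe that the RefSeq table assigns to Ifi27, listed in the files as Ifi27l1, had a difference of 0.14 (adjusted p = 0.817). Probes of Ifi27l2a, a relative of Ifi27, had differences of 0.20 and 0.26 (adjusted p = 0.832 and 0.806 in the fit of all probes).

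The upstream part of the pathway showed 1 call. Of the interferon genes listed, Ifnb1 and Ifna4 were above background on 0 arrays and Ifng, interferon gamma, on 2, while Ifna2 was above background on 12 of 12 (log2 difference -0.36, adjusted p = 0.627). Of 23 tested genes for ligands, receptors and signalling, 1 was lower and 0 higher, against 1.84% and 1.79% of all features. The median log2 difference of the 23 was -0.09. The lower gene was Sting1 (listed as Tmem173), the adaptor of cytosolic DNA sensing, with a difference of -0.61 (SE 0.11, adjusted p = 0.0097). The next smallest p belonged to Ifngr1, a subunit of the interferon gamma receptor, at 0.33 (adjusted p = 0.132). Of 32 further interferon-stimulated genes, 2 were lower and 1 higher, against the same shares of all features, with a median of -0.22. Sp100, a nuclear body protein, had -0.73 (adjusted p = 0.011), and Eif2ak2 (PKR), a kinase that halts translation on double-stranded RNA, had -0.55 (adjusted p = 0.041). Ifi204, a DNA-binding protein of the interferon-inducible p200 family, rose by 0.69 (adjusted p = 0.0065). The further list thus held calls in both directions.

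The rest of antigen presentation did not pass. Of 19 tested genes of MHC class I and peptide loading 0 were called and 0 had an unadjusted p below 0.05, with a median log2 difference of -0.03. The smallest p belonged to Pdia3, a chaperone of peptide loading, at 0.21 and to Psme1, a proteasome activator subunit, at -0.14. The constitutive proteasome subunits that the immunoproteasome replaces, Psmb5, Psmb6 and Psmb7, had differences of -0.03, -0.003 and -0.22, and 0 of 3 passed. Of 7 MHC class II genes 0 passed, with a median of -0.44. At an unadjusted p below 0.05, 4 of them were lower, against 9.82% of all features. H2-DMb1, which helps load class II, had -0.54 (adjusted p = 0.083), and H2-Eb1, a class II beta chain, had -0.52 (adjusted p = 0.132).

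The log2 differences of tested members with and without a match of the ISRE core overlapped, which is a description without a test. A missing match means only that these exact letters were absent from the window. The split therefore does not sort genes with an ISRE from genes without one. The 15 tested members with the core in their window had a median log2 difference of -0.13 and a range of -0.64 to -0.02. The 16 with a window but no core had a median of -0.21 and a range of -0.63 to 0.11. Ifit3 belongs to the first of these sets, and Oasl2 and Oasl1 belong to the other.

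The tissue and its other cells were checked with marker lists. Each of 10 fibre genes was above background on 12 arrays, with the lowest mean at 410 times the 75th percentile of the array. Of 10 macrophage markers 0 were called, with a median log2 difference of 0.02, and their mean deviation ran from -0.17 to 0.36 in exercised mice and from -0.56 to 0.60 in sedentary mice. Of 10 markers of T, B and NK cells 4 were kept, and Cd247, a T cell receptor chain, was lower (log2 difference -1.44, adjusted p = 0.013). Their mean deviation ran from -0.48 to -0.01 in exercised mice and from -0.07 to 0.45 in sedentary mice. Of 7 dendritic cell markers 5 were kept and 0 called. Of these 7, Itgax, Xcr1, Zbtb46 and Bst2, itself a member, were above background on 12 arrays and Flt3 on 8, and Siglech and Clec9a on 0. Their mean deviation ran from -0.30 to 0.29 in exercised mice and from -0.19 to 0.28 in sedentary mice. Endothelial markers gave 2 lower calls of 10, against 1.84% of all features. These were Kdr (log2 difference -0.77, adjusted p = 0.0068) and Cldn5 (-0.87, adjusted p = 0.027). Tek, Cdh5 and Emcn had -0.27, -0.26 and -0.31 and were not called. Pecam1, Vwf, Tie1, Esam and Eng differed little, at -0.03, -0.04, -0.06, 0.02 and 0.13, so the endothelial list did not shift as a whole. The endothelial mean deviation ran from -0.22 to 0.03 in exercised mice and from -0.12 to 0.31 in sedentary mice. The lymphoid and endothelial lists thus had lower mean deviations in exercised mice, as the members did, and their part in the members' differences was not tested. The tendon list had a median log2 difference of 0.82 with 10 of 10 genes above 0 and 0 called. At an unadjusted p below 0.05, 9 of them were higher, against 6.39% of all features. The tendon mean deviation ran from -0.40 to 1.12 in exercised mice and from -1.51 to 0.04 in sedentary mice. The adipocyte list had a median of 0.39 with 7 of 8 genes above 0, 2 at an unadjusted p below 0.05 and 0 called, Ucp1 being at 4.35 (adjusted p = 0.181). Its mean deviation ran from -1.18 to 1.67 in exercised mice and from -1.63 to 0.91 in sedentary mice. The part of these tissues in the members' differences was not tested. The number of probes above background was alike, with 23192 ± 957 on exercised and 23045 ± 1187 on sedentary arrays (SD, n = 6 each). The array of exercised animal 4 of set 2 had 217 outlier-marked gene spots, against at most 116 on any other array.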

How the data were processed

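The deposited scanner files hold spot intensity on a linear scale, 1 array per mouse, and the groups come from the sample titles. Per the file headers the authors used Agilent Feature Extraction 10.5.1.1 on 12 arrays, while the submitters' processing notes name version 9.1. Control spots and outlier-marked spots were left out, log2 of the processed signal was centred on each array's 75th percentile, and spots of a probe were averaged. Of 41174 gene probes 26868 were named through RefSeq accessions (GRCm38.p6) and 2900 by the file's name, and 11406 stayed unnamed. A probe was kept if well above background on at least 6 arrays (22919 probes), and each gene was represented by its brightest probe. Exercised was compared with sedentary in limma 3.58.1 (R 4.3.3) over 16555 features without a block, with Benjamini-Hochberg adjustment. The pipeline was tested on simulated data. The members, roles and lists were chosen with earlier results of these data known, so no list was given a p. Values were given for members past the threshold or without overlap and for the 10 with the smallest p, and of each other list for its called genes and its 2 smallest p. Ranges added for Irf7, the GTPases and the antigen-processing genes, and the values of Oas1c, were chosen after they were seen. Probe positions on mm9 come from the array annotation and were not checked against a sequence. The number of arrays limits the precision.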

Additional observations from a re-analysis of the deposited data

Results flagged for a closer look

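In 3 of the 80 sets of 6 values (40 genes in 2 groups), 1 mouse lay far from the others by Dixon's criterion, which chance alone meets in about 1 of 20 sets. Tap1 read 0.503 in exercised animal 1 of set 2, against 0.223 in the next exercised mouse. Gbp2 read 2.48 in the same mouse, against 0.960 in the next. Bst2 read 9.82 in sedentary animal 1 of set 1, against 6.86 in the next sedentary mouse.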

How the results depend on the processing

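The median log2 difference of the members stayed below 0 under each alternative run, and Ifit3 kept its direction in all of them, with its call lost under 5. Leaving out 1 mouse at a time gave 1 to 4 members called, with medians of -0.28 to -0.11, while 417 to 570 of all 16555 features were called. The count of members called was 0 within slide 1, 0 within slide 2 and 0 within slide 3, where 0, 8 and 0 of all features were called. It was 2 at an adjusted p below 0.10 (Ifit3 and Oasl2) and 2 with all probes fitted separately (Ifit3 lower, Trim25 higher). Normexp background correction gave 0 members and 0 of all features (Ifit3 -0.38), where the local background reached 599386 at single spots, 4 arrays being affected, against array medians of 19 to 23. With that background limited at its 99th percentile, an alternative added after the data were seen, 1 member and 477 features were called. On the 8 arrays whose number occurs in both groups, the replicate block gave 0 members (Ifit3 -0.60, adjusted p = 0.112) and 29 features, against 1 (Ifit3, adjusted p = 0.042) and 130 without the block, a comparison also added after the data were seen. Same-numbered mice deviated together in 3 of 4 cases (r = 0.15, -0.19, 0.12 and 0.28), and 2 of 4 correlated best with their own number. The mice with r = 0.15 and 0.28 shared a slide, and those with -0.19 and 0.12 did not. The part of the slide in these correlations was not tested. The labels do not say that a number marks a shared litter, batch or day, and not every pair exceeded 0.1, so the mice were not treated as pairs; whether they share such a factor was not tested. Within slide 2, Ddx58 and Oas1a had differences of 0.08 and 0.04. With array weights the median was -0.16 and 34 of 40 differences were below 0. For dim probes such as that of Ifi44 the signal over background limits what can be measured.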
